A study of Mus musculus with 9 samples.

Results

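Atf4 and 9 further genes of the integrated stress response (Atf5, Ddit3, Trib3, Asns, Chac1, Psat1, Phgdh, Sesn2 and Ddit4) were followed in bone marrow-derived dendritic cells (BMDCs) cultured with or without added exosomes. They were picked by name from knowledge of the pathway: the factor ATF4, its partner factors, and its targets in stress feedback and amino acid synthesis. Earlier results of these data were known when the genes were picked. The 10 symbols matched 11 of the 57238 entries of the table of reads per gene, because Ddit3 has 2 entries. All 10 genes passed the filter on low counts, which left 15028 genes to be tested, and the shorter Ddit3 entry (ENSMUSG00000116429, length 105 bases) did not pass it.

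In the integrated stress response, kinases that sense amino acid shortage, viral RNA, unfolded protein or heme deficiency phosphorylate the initiation factor eIF2alpha. General translation then slows, while the Atf4 mRNA is translated more, so that much of ATF4's regulation leaves the level of its own transcript alone. ATF4 protein switches on genes for amino acid supply and for feedback, among them Ddit3, which encodes the factor CHOP, and the pathway is known in dendritic cells as part of their response to endoplasmic reticulum stress.

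RNA was sequenced from BMDCs of wildtype C57BL/6 mice, grown from bone marrow for 6 days according to the labels, in medium with GM-CSF at 20 ng/ml. In the control group (CTR) no exosomes were added. The second group (NE-treated) had 24 h with exosomes from normal cells, the mouse fibroblast line NIH 3T3, and the third (TDE-treated) had 24 h with exosomes derived from tumor cells. Each group had 3 libraries, and the labels do not name the tumor line or say whether the libraries came from separate cultures, so that p-values measure only the spread between these libraries. GM-CSF cultures of bone marrow hold several myeloid cell types, and the values are averages over all cells in the dish. The dendritic cell markers Itgax and Zbtb46 were read in every library, at 107 to 178 CPM for Itgax and 13.7 to 19.9 CPM for Zbtb46 (CPM, reads of a gene scaled to one common library size, which removes differences in depth, here with TMM normalization). They are 2 of 12 listed markers of this cell type, of which 7 were called lower and 0 higher in TDE-treated than in CTR BMDCs. Of all genes tested, 9.34% were called lower and 7.57% higher in that comparison. Against NE-treated BMDCs 4 of the 12 were called lower and 0 higher, beside 7.21% and 6.73% of all genes tested. Neutrophil markers were read as well, at sums of 3685 to 3982 CPM in TDE-treated libraries, where dendritic cell markers summed to 2642 to 2806 CPM.

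Depth lay between 17469782 and 21092943 estimated reads per library, and the smallest level it can show, 3 reads, was 0.142 to 0.172 CPM, a floor that covers counting error only. CTR replicate 1 stood apart: over log2 CPM its Pearson correlation was at most 0.900 with any other library, whereas the lowest pair among the other 8 libraries reached 0.941. Its deviation followed gene length. For this the filter on low counts was run on TMM-scaled library sizes, which gave a set slightly different from the genes tested. Relative to the mean of all libraries, the 1636 shortest genes (under 1000 bases) had a median log2 ratio of 1.28 in CTR replicate 1. The 3848 longest (4000 bases or more) had one of -0.80 there, against -0.26 to 0.15 (shortest) and -0.09 to 0.19 (longest) in the other libraries. Values without this library are therefore given for the 10 genes, and call counts without it for the pathway lists.

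Between TDE-treated and CTR BMDCs, 1 of the 10 genes rose and 0 fell at an adjusted p-value under 0.05 (edgeR's quasi-likelihood test with Benjamini-Hochberg adjustment over all genes tested). It was Ddit4, with a 6.46-fold higher level, and across all tested genes 16.9% were called in either direction, 7.57% as higher and 9.34% as lower. The 3 TDE-treated libraries lay above all CTR libraries for 4 genes (Atf4, Ddit4, Sesn2 and Trib3), against 22.2% of all genes, and below them for 1 (Atf5), against 21.8%. Without CTR replicate 1, 5 genes were called, all higher in TDE-treated BMDCs (Asns, Atf4, Ddit4, Sesn2 and Trib3), while the share of all genes called went up to 34.4%, with 16.4% as higher. Leaving out CTR replicate 3 gave 2 (Ddit4, and Atf5 as lower) at 25.6% of all genes, DESeq2 gave 2 (Ddit4 and Sesn2) at 26.7% and offsets fitted to gene length gave 2 (Ddit4 and Atf4) at 23.4%. With limma voom and sample quality weights, the count was 7, with Atf5 and Psat1 called as lower beside the same 5 genes, at a share of 52.5% of all genes.

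Between TDE-treated and NE-treated BMDCs, Ddit4 and Sesn2 were called, both higher in TDE-treated BMDCs, so 2 of 10 genes against 13.9% of all genes in either direction, 6.73% as higher and 7.21% as lower. The TDE-treated libraries lay above all NE-treated libraries for the same 4 genes as above, Atf4, Ddit4, Sesn2 and Trib3, against 26.8% of all genes, and below them for Atf5 and Psat1, against 27.7%. This comparison and the one with CTR share the TDE-treated libraries and are not independent. Without CTR replicate 1, which enters this comparison through the filter, the normalization and the shared estimate of the spread, 5 genes were called (Atf4, Ddit4, Sesn2 and Trib3 as higher, Psat1 as lower), at a share of 40.7% of all genes (19.2% higher, 21.5% lower). A fit to the 6 libraries of this comparison alone called the same 5 at a share of 41.9%. DESeq2 and length offsets each called 4 (Atf4, Ddit4, Sesn2 and Trib3), at shares of 20.1% and 19.6%, and limma voom called 7, at 55.3%. Ddit4 alone was left without the filter on low counts (4.95% of all genes) and with the replicate block (7.82%). With library totals alone Ddit4 and Trib3 were called (11.9%), and without NE replicate 3 Ddit4 and Atf4 (8.27%).

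NE-treated BMDCs compared with CTR BMDCs gave 0 of the 10 genes past the edgeR threshold and 0 (0%) of all genes tested. At an unadjusted p-value under 0.05 the counts were 0 of 10 members and 487 of all genes (3.24%). DESeq2 called 6 genes (0.0399%), limma voom 18 (0.12%) and edgeR without CTR replicate 1 called 3 (0.0196%), with 0 of the 10 members in each. For 0 of the 10 genes did the NE-treated libraries lie wholly above or below the CTR libraries, against 4.05% and 3.67% of all genes.

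**Figure D1:**
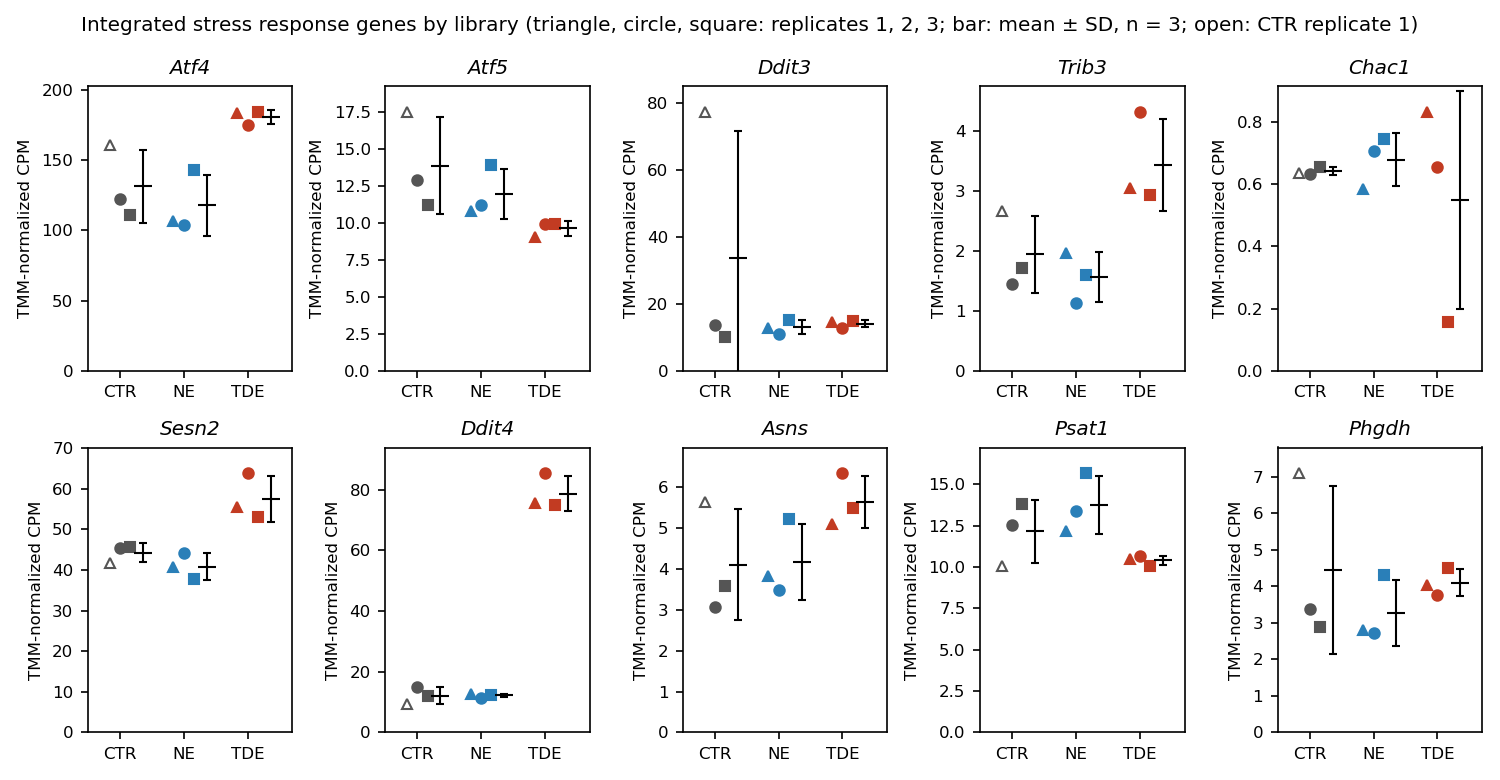
TMM-normalized CPM (vertical axes, each from 0) of the 10 genes in the CTR, NE-treated and TDE-treated libraries. Symbols are libraries, with CTR replicate 1 open, and black bars are the mean ± SD of the 3 libraries of a group. For Ddit3 the bar of the CTR group runs below 0 and is cut at the axis. The TDE-treated libraries of Ddit4 sit at 75.02 to 85.4 CPM, above every other library, and CTR replicate 1 is the highest of all 9 libraries for Ddit3, Atf5 and Phgdh.

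The amino acid response element that ATF4 binds together with C/EBP factors has the core TGATGNAA. RefSeq promoters (build GRCm38.p6), taken from 250 bases before to 50 bases after each start site and searched on both strands, were found for all 10 genes. The motif was in those of 3 genes, Chac1, Asns and Trib3, and in 3.97% of the 32851 promoters of all genes. The 10 genes have 12 promoters, and a gene was counted if any of its promoters held the motif, whereas the share is per promoter. The narrower form TGATGCAA was in 0.895% of all promoters and, among the 10 genes, in that of Chac1. The promoter stretches of Ddit4 and Sesn2 are shown because these 2 genes were called in a comparison, and neither 300-base window holds the motif. Those of Chac1, Asns and Trib3 are shown for the motif, which is in capitals (reverse complement where it lies on the other strand). For Chac1, Ddit4 and Sesn2 the stretch is chr2:119350992-119351228 on the plus strand, chr10:59951835-59952020 on the minus strand and chr4:132510502-132510706 on the minus strand. For Asns and Trib3 it is chr6:7693213-7693242 and chr2:152344028-152344057, both on the minus strand.
Ddit4: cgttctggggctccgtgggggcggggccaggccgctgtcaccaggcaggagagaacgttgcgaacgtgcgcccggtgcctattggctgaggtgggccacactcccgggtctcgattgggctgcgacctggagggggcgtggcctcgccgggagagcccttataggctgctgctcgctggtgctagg
Sesn2: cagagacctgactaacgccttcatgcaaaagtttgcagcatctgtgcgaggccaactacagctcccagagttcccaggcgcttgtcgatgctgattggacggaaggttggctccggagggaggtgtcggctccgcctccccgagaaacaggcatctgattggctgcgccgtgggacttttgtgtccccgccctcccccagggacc
Chac1: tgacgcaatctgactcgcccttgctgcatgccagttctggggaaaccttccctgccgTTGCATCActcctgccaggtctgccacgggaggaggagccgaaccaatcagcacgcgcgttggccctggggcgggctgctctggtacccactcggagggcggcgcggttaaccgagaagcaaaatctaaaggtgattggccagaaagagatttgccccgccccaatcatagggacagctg
Asns: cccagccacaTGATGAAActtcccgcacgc
Trib3: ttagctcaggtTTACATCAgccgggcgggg
Counted from the RefSeq start site, the first base of the motif lies at position -193 in Chac1, -23 in Asns and 15 in Trib3, and a match of letters is not evidence of binding.

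Among the transcription factors, Atf4 (ENSMUSG00000042406, chr15:80255184-80257541, GRCm38), the factor the pathway converges on, stood at 161, 123 and 111 CPM in CTR replicates 1, 2 and 3, at 107, 104 and 143 CPM in the NE-treated libraries and at 183, 175 and 184 CPM in the TDE-treated libraries. Every TDE-treated library was above every other library, while the CTR and NE-treated libraries overlapped, with CTR replicate 1 and NE replicate 3 the highest of their groups. The log2 fold change of TDE-treated against CTR BMDCs was 0.46 ± 0.18 (SE) and missed the threshold (edgeR adjusted p = 0.119), and that against NE-treated BMDCs was 0.62 ± 0.19 and missed it too (edgeR adjusted p = 0.0616). Without CTR replicate 1 both passed, at 0.62 ± 0.13 (edgeR adjusted p = 0.00707) and 0.61 ± 0.12 (edgeR adjusted p = 0.0033). Atf4 was also called in both comparisons with offsets fitted to gene length (edgeR adjusted p = 0.0154 against CTR and 0.00949 against NE-treated BMDCs). Against NE-treated BMDCs it was called without NE replicate 3 as well (0.79, edgeR adjusted p = 0.0469). The smallest and largest adjusted p-values over 19 alternatives were 4.53e-05 and 0.261 in the comparison with CTR, and 9.58e-07 and 0.211 in that with NE-treated BMDCs. NE-treated and CTR BMDCs differed by -0.16 ± 0.18 (edgeR adjusted p = 0.673).

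Atf5 (ENSMUSG00000038539, chr7:44812256-44816658), a relative of Atf4 whose mRNA is also translated more under stress, went the other way. It stood at 17.5, 12.9 and 11.2 CPM in CTR, 10.8, 11.2 and 13.9 CPM in NE-treated and 9.03, 9.94 and 9.93 CPM in TDE-treated libraries. The TDE-treated libraries were the lowest 3 of the 9, and neither difference passed the threshold, with log2 fold changes of -0.52 ± 0.19 against CTR (edgeR adjusted p = 0.0993) and -0.31 ± 0.19 against NE-treated BMDCs (edgeR adjusted p = 0.378). Leaving out CTR replicate 3 turned the former into a call (-0.65, edgeR adjusted p = 0.0443), and leaving out CTR replicate 1 did not (-0.33 ± 0.13, edgeR adjusted p = 0.0873). Without CTR replicate 1 the difference against NE-treated BMDCs was -0.32 ± 0.12 (edgeR adjusted p = 0.0645). Exons of Atf5 overlap those of Il4i1 and Nup62 on the opposite strand, and with the strand setting of the counting unknown, their reads cannot be told apart from those of Atf5.

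Ddit3 (ENSMUSG00000025408, chr10:127290774-127296288), which encodes CHOP, the factor tied to cell death under lasting stress, depended on 1 library. CTR replicate 1 was at 77.4 CPM, while the other CTR libraries were at 13.6 and 10.1 CPM, the NE-treated libraries at 13.0, 11.1 and 15.2 CPM and the TDE-treated libraries at 14.6, 12.8 and 14.9 CPM. Apart from CTR replicate 1, the 3 groups overlapped. The log2 fold change of TDE-treated against CTR BMDCs was -1.25 ± 0.68 (edgeR adjusted p = 0.22) with all libraries and 0.24 ± 0.17 (edgeR adjusted p = 0.304) without CTR replicate 1, a change of sign. Against NE-treated BMDCs it was 0.11 ± 0.67 (edgeR adjusted p = 0.96) with all libraries and 0.10 ± 0.15 (edgeR adjusted p = 0.622) without CTR replicate 1.

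The length of Ddit3 is 890 bases, and genes of similar length (within 1.2 times, 990 genes) had a median log2 ratio of 1.33 between CTR replicate 1 and the mean of the other 2 CTR libraries. The ratio of Ddit3 was 2.69, and 5.96% of those genes lay above it. Phgdh followed at 1.16, against a median of 0.32 for genes of its length, 17.8% of which lay above it. For Atf4 and Atf5 the ratios were 0.46 and 0.53, close to the medians of 0.40 and 0.39 at their lengths, whereas Ddit4 was at -0.50 where genes of its length had a median of 0.38, 79.8% of them above it. Exons of Ddit3 overlap Mars and Gm4189 on the opposite strand, and Mars, a tRNA synthetase gene, stood at 56.2 CPM in CTR replicate 1 and at 26.4 and 26.1 CPM in the other CTR libraries. The second Ddit3 entry lies within the first on the same strand, had 0 to 6.28 estimated reads per library, and showed no difference that an exact two-sided permutation test could call (p = 0.2 for TDE-treated against CTR BMDCs, n = 3 each, where 0.1 is the smallest p possible).

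**Figure D2:**
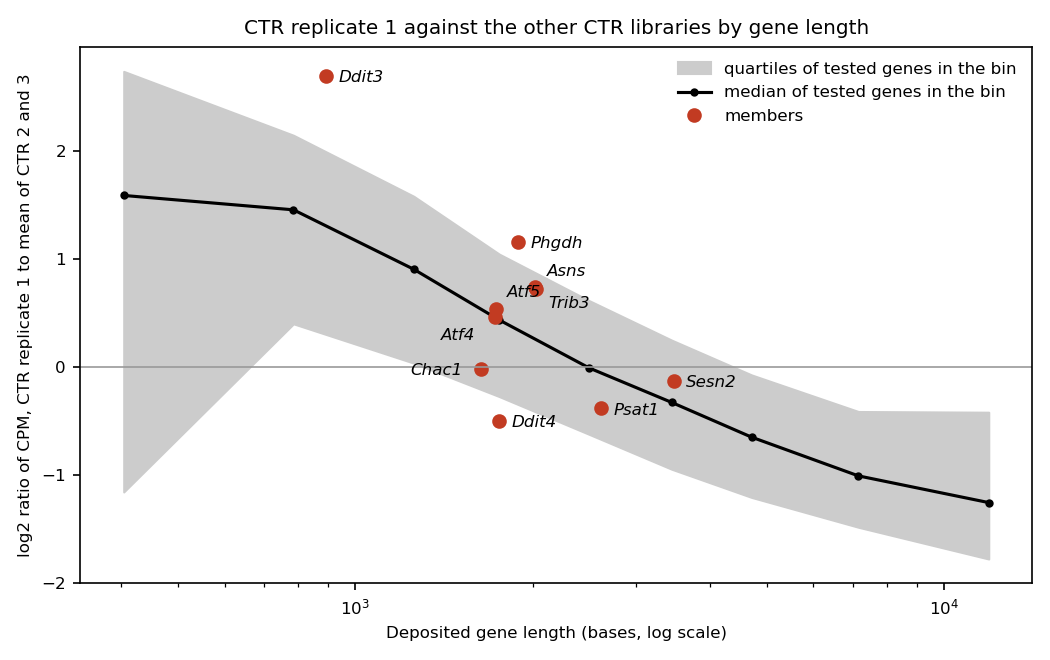
Log2 ratio of CPM between CTR replicate 1 and the mean of CTR replicates 2 and 3 (vertical axis) against gene length in bases (log scale). The black line joins the medians of all tested genes in bins of length, the gray band spans their quartiles, and red points are the 10 genes. Ddit3 (2.69) lies above the band at its length and so does Phgdh (1.16), while Ddit4 (-0.50) lies below the band.

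Among the feedback genes, Ddit4 (ENSMUSG00000020108, chr10:59949669-59951834) changed most. It encodes REDD1, which restrains the growth kinase complex mTORC1. Its level was 9.51, 14.9 and 12.1 CPM in CTR, 12.8, 11.5 and 12.2 CPM in NE-treated and 75.6, 85.4 and 75.02 CPM in TDE-treated libraries. The TDE-treated libraries were far above all others, and the CTR and NE-treated libraries overlapped. Its log2 fold change was 2.69 ± 0.18 in either comparison, with edgeR adjusted p-values of 0.000103 against CTR and 8.9e-05 against NE-treated BMDCs, and without CTR replicate 1 it was 2.53 ± 0.12 and 2.68 ± 0.10. Ddit4 was called in both comparisons under all 19 alternatives, with log2 fold changes of 2.44 to 2.87 against CTR and 2.63 to 2.73 against NE-treated BMDCs. These are averages over the culture, in which a changed number of cells of a type and a changed amount of RNA per cell cannot be told apart.

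Sesn2 (ENSMUSG00000028893, chr4:132492032-132510501) encodes a sestrin that senses leucine and, like REDD1, restrains mTORC1. It stood at 41.7, 45.4 and 45.8 CPM in CTR, 40.7, 44.1 and 37.7 CPM in NE-treated and 55.5, 63.8 and 52.97 CPM in TDE-treated libraries. All TDE-treated libraries were above all others, with a smaller step than in Ddit4. The log2 fold change of 0.49 ± 0.13 against NE-treated BMDCs passed the threshold (edgeR adjusted p = 0.0354), and that of 0.37 ± 0.13 against CTR BMDCs did not (edgeR adjusted p = 0.078). The call against NE-treated BMDCs was lost in 7 of the 9 fits that left out 1 library (edgeR adjusted p of 0.0635 without CTR replicate 2 to 0.157 without TDE replicate 2), and with the replicate block (0.0918), and it remained without CTR replicate 1 (0.00306) and without CTR replicate 3. Against CTR BMDCs, DESeq2 called Sesn2 (adjusted p = 0.0143), as did edgeR without CTR replicate 1 (0.32 ± 0.10, adjusted p = 0.0397).

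Trib3 (ENSMUSG00000032715, chr2:152337422-152344032), a pseudokinase gene that ATF4 and CHOP switch on and whose product dampens both, was low throughout. Its level was 2.66, 1.44 and 1.72 CPM in CTR, 1.96, 1.14 and 1.59 CPM in NE-treated and 3.05, 4.31 and 2.93 CPM in TDE-treated libraries. The TDE-treated libraries were the highest 3, with CTR replicate 1 next below them. Log2 fold changes of 0.83 ± 0.33 against CTR (edgeR adjusted p = 0.114) and 1.13 ± 0.33 against NE-treated BMDCs (edgeR adjusted p = 0.0562) missed the threshold. Both passed without CTR replicate 1 (1.11 ± 0.29, edgeR adjusted p = 0.0182, and 1.12 ± 0.26, edgeR adjusted p = 0.00829), and DESeq2 called the comparison with NE-treated BMDCs (adjusted p = 0.0127).

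Chac1 (ENSMUSG00000027313, chr2:119351229-119354381), which encodes an enzyme that degrades glutathione, was the lowest of the 10 genes. It was at 0.634, 0.632 and 0.656 CPM in CTR, 0.584, 0.705 and 0.746 CPM in NE-treated and 0.831, 0.655 and 0.157 CPM in TDE-treated libraries. TDE replicate 3 was at the floor of 3 reads, while the other TDE-treated libraries lay among or above the rest. Differences of -0.23 ± 0.51 against CTR (edgeR adjusted p = 0.759) and -0.31 ± 0.51 against NE-treated BMDCs (edgeR adjusted p = 0.804) changed sign without TDE replicate 3, to 0.22 and 0.13, so that at this depth no change of Chac1 was detectable. Without CTR replicate 1 the differences were -0.25 ± 0.55 (edgeR adjusted p = 0.763) and -0.32 ± 0.50 (edgeR adjusted p = 0.64).

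Of the genes for amino acid synthesis, Asns (ENSMUSG00000029752, chr6:7675169-7693254), which makes asparagine, was at 5.64, 3.07 and 3.58 CPM in CTR, 3.82, 3.47 and 5.22 CPM in NE-treated and 5.10, 6.33 and 5.49 CPM in TDE-treated libraries. The TDE-treated libraries overlapped CTR replicate 1 and NE replicate 3 and lay above the other 4. The log2 fold changes of 0.46 ± 0.27 against CTR (edgeR adjusted p = 0.253) and 0.43 ± 0.27 against NE-treated BMDCs (edgeR adjusted p = 0.384) missed the threshold, and without CTR replicate 1 the former passed at 0.75 ± 0.21 (edgeR adjusted p = 0.0228) while the latter did not, at 0.42 ± 0.18 (edgeR adjusted p = 0.0971).

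Psat1 and Phgdh encode enzymes of serine synthesis, Phgdh the one at its entry. Psat1 (ENSMUSG00000024640, chr19:15904678-15947337) was at 10.1, 12.6 and 13.8 CPM in CTR, 12.2, 13.4 and 15.7 CPM in NE-treated and 10.5, 10.6 and 10.1 CPM in TDE-treated libraries. The TDE-treated libraries lay below all NE-treated libraries and below CTR replicates 2 and 3, with CTR replicate 1 level with them. The log2 fold changes were -0.23 ± 0.16 against CTR (edgeR adjusted p = 0.344) and -0.40 ± 0.16 against NE-treated BMDCs (edgeR adjusted p = 0.156), and without CTR replicate 1 they were -0.35 ± 0.12 (edgeR adjusted p = 0.052) and -0.41 ± 0.11 (edgeR adjusted p = 0.0156), the latter a call. Phgdh (ENSMUSG00000053398, chr3:98313170-98339990) was at 7.10, 3.39 and 2.88 CPM in CTR, 2.81, 2.71 and 4.33 CPM in NE-treated and 4.05, 3.77 and 4.49 CPM in TDE-treated libraries. CTR replicate 1 was its highest library, and the log2 fold change against CTR of -0.11 ± 0.36 (edgeR adjusted p = 0.835) became 0.38 ± 0.23 (edgeR adjusted p = 0.249) without it. Against NE-treated BMDCs Phgdh differed by 0.32 ± 0.36 (edgeR adjusted p = 0.681), and by 0.31 ± 0.21 (edgeR adjusted p = 0.272) without CTR replicate 1.

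**Figure D3:**
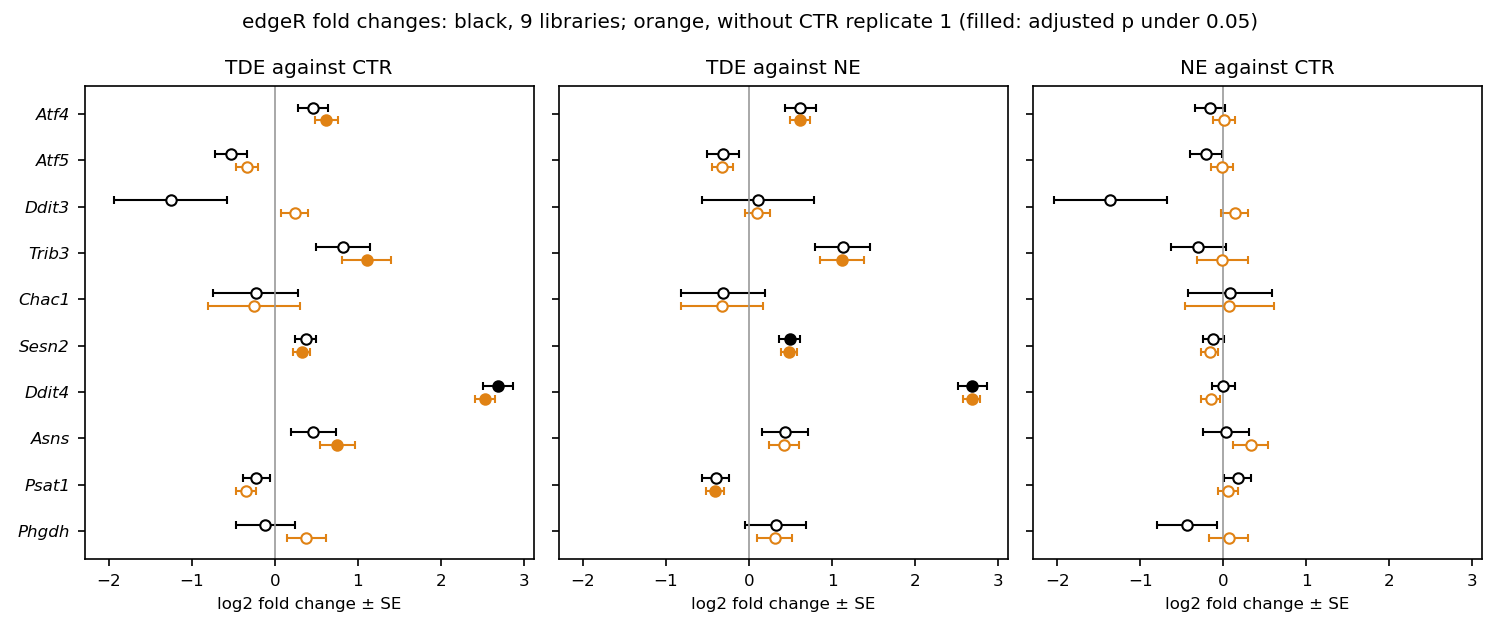
Log2 fold changes ± SE (horizontal axes) of the 10 genes in the 3 comparisons by edgeR. Black symbols are from all 9 libraries and orange symbols from the fit without CTR replicate 1, and filled symbols have an adjusted p-value under 0.05. Ddit4 stands at 2.69 with all libraries against both groups, and Ddit3 moves from -1.25 to 0.24 against CTR without CTR replicate 1.

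Per length, as CPM divided by the listed gene length in kilobases (RPKM), the order of the levels was led by Atf4 in every group. Its mean was 76.2 ± 15.1 RPKM in CTR, 68.2 ± 12.6 RPKM in NE-treated and 105 ± 2.86 RPKM in TDE-treated BMDCs (SD, n = 3 each). Ddit4 went from 6.93 ± 1.52 RPKM in CTR BMDCs, the fifth rank, to 44.8 ± 3.32 RPKM in TDE-treated BMDCs, the second rank. In TDE-treated BMDCs Sesn2 (16.5 ± 1.62 RPKM) and Ddit3 (15.9 ± 1.26 RPKM) followed, and their libraries overlapped. Below them came Atf5 at 5.55 ± 0.299, Psat1 at 3.97 ± 0.11, Asns at 2.80 ± 0.313 and Phgdh at 2.17 ± 0.193 RPKM, then Trib3, whose libraries overlapped those of Phgdh, at 1.69 ± 0.379 RPKM, and Chac1 at 0.335 ± 0.214 RPKM. In NE-treated BMDCs the neighbours Ddit3 and Sesn2, Ddit4 and Atf5, and Asns and Phgdh overlapped, and in CTR BMDCs Atf4 and Ddit3, Ddit3 and Sesn2, Atf5 and Ddit4, and Phgdh and Asns. Serine and asparagine synthesis genes took ranks 6 to 8 in all 3 groups, above Trib3 and Chac1.

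The genes whose profile over the 9 libraries was most like that of Atf4 were Mettl9, Taz (ENSMUSG00000009995) and Mcl1. The root mean square difference from Atf4 was 0.068, 0.070 and 0.072 on the log2 CPM scale after each gene was centred on its mean. Mcl1, which encodes a survival factor of the BCL-2 family, went from 1099 CPM in CTR and 970 CPM in NE-treated to 1543 CPM in TDE-treated BMDCs (means), and Mettl9 from 76.7 and 69.9 to 101 CPM. This is a description of likeness, without a test.

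The counts of called genes in the lists of neighbouring pathways stand beside 16.9% of all genes called against CTR and 13.9% against NE-treated BMDCs, and 34.4% and 40.7% without CTR replicate 1. Upstream of Atf4, 17 genes were measured for eIF2, its kinases and their regulators, its phosphatase subunits and the exchange factor eIF2B. Of these, 2 rose in TDE-treated against CTR BMDCs and 0 fell. Ppp1r15b, the constitutive subunit that directs phosphatase to eIF2alpha, rose by 0.91 ± 0.17 on the log2 scale (edgeR adjusted p = 0.00884), and Eif2s2, the beta subunit of eIF2, by 0.51 ± 0.12 (edgeR adjusted p = 0.0269). Against NE-treated BMDCs 3 rose, Ppp1r15a with these, and 0 fell. Ppp1r15a (GADD34), the inducible phosphatase subunit and an ATF4 target, was at 57.0, 39.9 and 34.7 CPM in CTR, 31.1, 29.4 and 39.7 CPM in NE-treated and 65.9, 61.5 and 60.4 CPM in TDE-treated libraries. It rose against NE-treated BMDCs (0.91 ± 0.21, edgeR adjusted p = 0.0217), and its difference against CTR of 0.51 ± 0.20 (edgeR adjusted p = 0.118) did not pass, but did without CTR replicate 1 (0.74 ± 0.13, edgeR adjusted p = 0.00268). For the 4 eIF2alpha kinases the log2 fold changes against CTR were 0.17 ± 0.13 for Eif2ak1 (HRI), 0.53 ± 0.33 for Eif2ak2 (PKR), 0.13 ± 0.39 for Eif2ak3 (PERK) and 0.78 ± 0.28 for Eif2ak4 (GCN2), with edgeR adjusted p-values of 0.0955 to 0.818. In the fit without CTR replicate 1, 5 of the 17 rose (Eif2ak4, Impact and Ppp1r15a in addition) and 0 fell against CTR, and 4 rose (Impact in addition to the 3 above) and 2 fell against NE-treated BMDCs, Eif2b3 (-0.41 ± 0.14, adjusted p = 0.0492) and the kinase gene Eif2ak3 (-0.27 ± 0.09, adjusted p = 0.0335).

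Among 23 measured stress factors and other genes known as ATF4 or CHOP targets, 7 rose and 1 fell in TDE-treated against CTR BMDCs, and 8 rose and 0 fell against NE-treated BMDCs. Their median log2 fold change against CTR was 0.33, beside -0.05 over all genes tested. Gdf15, a stress-induced secreted factor, went from 10.3, 6.10 and 4.59 CPM in CTR to 97.8, 58.5 and 81.3 CPM in TDE-treated libraries (3.51 ± 0.34, edgeR adjusted p = 0.000521). Stc2, which encodes the secreted protein stanniocalcin-2, followed at 2.73 ± 0.27 (edgeR adjusted p = 0.00062), and the others that rose were Ero1l, Ndrg1, Vegfa, Atf3 and Cdkn1a. Atf3, an early stress factor downstream of ATF4, was at 124, 175 and 151 CPM in CTR and 366, 301 and 356 CPM in TDE-treated libraries (1.18 ± 0.16, edgeR adjusted p = 0.00235). Gadd45a fell (-0.82 ± 0.20, edgeR adjusted p = 0.0266). Ero1l, Ndrg1, Vegfa and Stc2 are known hypoxia-responsive genes as well, and Cdkn1a is a known p53 target. Leaving out CTR replicate 1 gave 10 that rose and 3 that fell against CTR, and 12 and 3 against NE-treated BMDCs.

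In the supply of amino acids the calls went both ways. Of 9 measured serine, glycine and one-carbon enzymes 1 rose (Mthfd1l, 1.28 ± 0.30, edgeR adjusted p = 0.024) and 1 fell (Mthfd2l, -0.89 ± 0.20, edgeR adjusted p = 0.0205) against CTR. Psph, the last enzyme of serine synthesis, differed by 0.03 ± 0.22, Shmt2 by -0.48 ± 0.23 and Mthfd2, a mitochondrial one-carbon enzyme known as an ATF4 target, by 0.40 ± 0.16, without calls (edgeR adjusted p = 0.937, 0.181 and 0.118). Mthfd2 was called as higher once CTR replicate 1 was left out (0.47 ± 0.14, edgeR adjusted p = 0.031 against CTR, and 0.50 ± 0.13, edgeR adjusted p = 0.0118 against NE-treated BMDCs). Against CTR, Mthfd1 was then called as lower too (-0.52 ± 0.10, edgeR adjusted p = 0.00439). Against NE-treated BMDCs, Mthfd1l rose and Mthfd1 fell with all libraries, and leaving out CTR replicate 1 added Mthfd2 as higher and Mthfd2l as lower. The fit without CTR replicate 1 thus had 2 rising and 2 falling genes of the 9 in either comparison. Of 9 further amino acid synthesis enzymes 0 rose and 2 fell, Got1 (-0.69 ± 0.17, edgeR adjusted p = 0.0258) and Glul (-0.66 ± 0.14, edgeR adjusted p = 0.0139). Leaving out CTR replicate 1 added Bcat2 as higher against CTR, and Bcat2 and Pycr1 against NE-treated BMDCs.

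Of 11 measured amino acid transporters 2 rose and 2 fell against CTR. Slc7a2, which carries arginine and other cationic amino acids, went from 19.1, 66.2 and 93.0 CPM in CTR and 58.0, 58.8 and 37.5 CPM in NE-treated to 506, 461 and 488 CPM in TDE-treated libraries (3.03 ± 0.51 against CTR, edgeR adjusted p = 0.00608). Slc7a11, the cystine carrier and a known ATF4 target, rose by 0.85 ± 0.24 (edgeR adjusted p = 0.0461) and was not called against NE-treated BMDCs (0.46 ± 0.24, edgeR adjusted p = 0.286). The neutral amino acid carriers Slc1a4 (-1.50 ± 0.32, edgeR adjusted p = 0.0166) and Slc1a5 (-0.98 ± 0.12, edgeR adjusted p = 0.00131) fell. Slc1a4 is also known as an ATF4 target. The 4 calls against CTR were the same genes without CTR replicate 1. Against NE-treated BMDCs 1 rose (Slc7a2) and 2 fell (Slc1a4 and Slc1a5), with and without that library.

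Cytosolic tRNA synthetase genes listed as ATF4 targets were called lower in 2 of 12 cases against CTR (Wars, -0.92 ± 0.25, edgeR adjusted p = 0.039, and Tars, -0.47 ± 0.14, edgeR adjusted p = 0.0487) and in 0 against NE-treated BMDCs. Without CTR replicate 1, 4 rose (Cars, Mars, Sars and Aars) and 3 fell (Wars, Tars and Iars) against CTR, and the same 7 genes were called in the same directions against NE-treated BMDCs. Of 8 other synthetases 0 were called against CTR and 1, Qars, was higher against NE-treated BMDCs, whereas without CTR replicate 1 Qars was higher and Hars and Farsa lower in both comparisons.

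Of 4 measured relatives of the feedback genes, 0 rose and 1 fell in each comparison with TDE-treated BMDCs. Sesn1 fell in TDE-treated BMDCs, with 61.9, 86.1 and 76.2 CPM in CTR, 82.3, 82.3 and 83.3 CPM in NE-treated and 44.8, 43.3 and 44.2 CPM in TDE-treated libraries (-0.76 ± 0.14 against CTR, edgeR adjusted p = 0.00853, and -0.91 ± 0.14 against NE-treated BMDCs, edgeR adjusted p = 0.00406), the opposite sign to Sesn2. The difference between the 2 genes was not tested. Sesn3 (0.44 ± 0.44, edgeR adjusted p = 0.496), Trib1 (-0.11 ± 0.12, edgeR adjusted p = 0.529) and Chac2 (0.70 ± 0.24, edgeR adjusted p = 0.0826) were not called against CTR. In the fit without CTR replicate 1 Chac2 rose (0.72 ± 0.24, edgeR adjusted p = 0.046 against CTR, and 0.62 ± 0.21, edgeR adjusted p = 0.0463 against NE-treated BMDCs). In the mTORC1 pathway, on which Ddit4 and Sesn2 act, 0 of 15 measured subunits and inhibitors rose and 3 fell against CTR (Castor2, -0.73 ± 0.12, Mlst8, -0.70 ± 0.13, and Rptor, -0.54 ± 0.16, edgeR adjusted p = 0.00476, 0.00862 and 0.0488). Leaving out CTR replicate 1 added Castor1 (0.89 ± 0.19, edgeR adjusted p = 0.00611) and Fnip1 (0.44 ± 0.12, edgeR adjusted p = 0.0225) as higher against CTR, and against NE-treated BMDCs 2 rose and 5 fell.

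In the ATF6 and XBP1 branches of the unfolded protein response, of 22 measured chaperones and degradation factors 1 rose, Xbp1 itself (0.61 ± 0.12 against CTR, edgeR adjusted p = 0.0115), and 0 fell, in either comparison. The chaperone gene Hspa5 (BiP), the usual marker of endoplasmic reticulum stress, was at 494, 468 and 428 CPM in CTR and 447, 421 and 441 CPM in TDE-treated libraries (-0.09 ± 0.13, edgeR adjusted p = 0.646). Of 11 mitochondrial chaperones and proteases 1 rose (Afg3l2, 1.06 ± 0.12, edgeR adjusted p = 0.00111) and 2 fell against CTR (Trap1, -0.69 ± 0.17, and Hspd1, -0.55 ± 0.15, edgeR adjusted p = 0.0285 and 0.0436). When CTR replicate 1 was left out, 4 of the 22 (Xbp1 and the degradation factors Derl1, Derl2 and Derl3) rose and 1 (Pdia4) fell against CTR, 3 rose and 3 fell against NE-treated BMDCs, and 4 of the 11 mitochondrial genes rose and 2 fell in either comparison.

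Ddit4 is also known to be induced by hypoxia signaling, p53 and glucocorticoids, and Sesn2 by p53. Of 14 hypoxia target genes 12 rose and 0 fell against both CTR and NE-treated BMDCs, with a median log2 fold change of 1.88 against CTR. Egln3, an oxygen-sensing enzyme, went from 18.6, 35.7 and 28.3 CPM in CTR to 297, 333 and 298 CPM in TDE-treated libraries (3.49 ± 0.24, edgeR adjusted p = 0.000115). Adm rose from near the floor, 0.0634, 0.181 and 0.202 CPM, to 2.49, 1.42 and 1.52 CPM (edgeR adjusted p = 0.00657). Of 12 p53 targets 3 rose and 0 fell against CTR, led by Ccng1 (0.80 ± 0.21, edgeR adjusted p = 0.0369) and Zmat3 (0.79 ± 0.22, edgeR adjusted p = 0.0443), and 0 rose and 1 fell against NE-treated BMDCs. Without CTR replicate 1, 13 hypoxia targets rose, and of the p53 targets 5 rose and 2 fell against CTR and 6 rose and 2 fell against NE-treated BMDCs. Of 7 glucocorticoid targets 1 rose against CTR, Per1 (1.40 ± 0.13, edgeR adjusted p = 0.000493), and 3 fell, among them Tsc22d3 (-0.70 ± 0.20, edgeR adjusted p = 0.047). Zbtb16 fell too, from 0.570, 1.40 and 2.37 CPM to 0.166, 0.437 and 0.157 CPM (edgeR adjusted p = 0.0282), where TDE replicates 1 and 3 were at the floor of 3 reads. Among 16 proliferation genes 3 rose, with Bub1 (1.74 ± 0.34) and Mki67 (0.79 ± 0.22) highest (edgeR adjusted p = 0.0105 and 0.0413), and 4 fell, with Pcna (-0.98 ± 0.15) and Mcm6 (-0.88 ± 0.14) lowest (edgeR adjusted p = 0.00421 and 0.00531). In the fit without CTR replicate 1 the glucocorticoid targets had 1 that rose and 4 that fell against CTR, and the proliferation genes 5 and 5. Against NE-treated BMDCs the same fit gave 1 and 3 for the glucocorticoid targets and 5 and 5 for the proliferation genes. The part of these pathways in the levels of Ddit4 and Sesn2 was not tested.

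**Figure D4:**
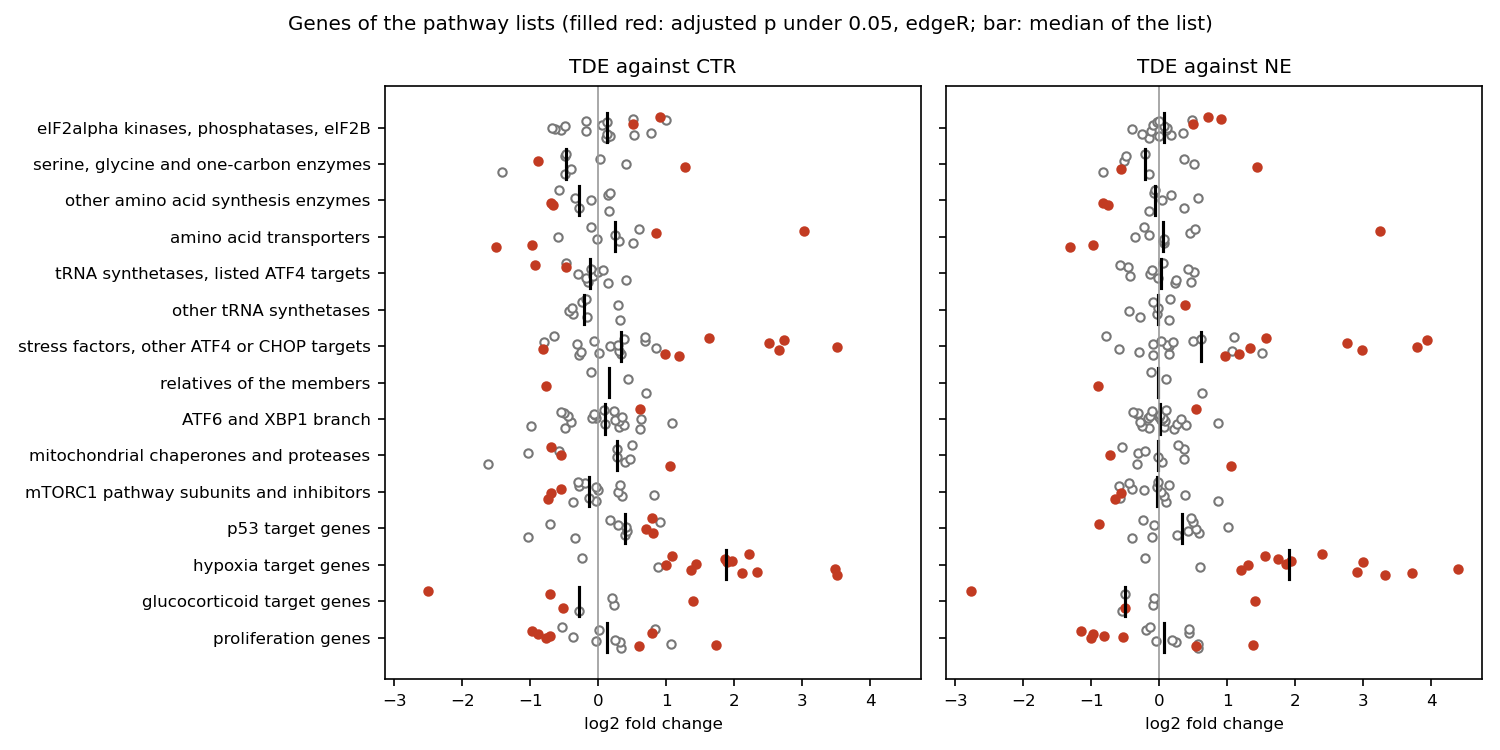
Log2 fold changes by edgeR (horizontal axes) of the tested genes in 15 lists of neighbouring pathways, for TDE-treated against CTR and against NE-treated BMDCs. Each point is a gene, filled red at an adjusted p-value under 0.05 and open otherwise, and the vertical bar is the median of the list. The hypoxia targets lie furthest to the right, with 12 of 14 filled and a median of 1.88 against CTR, and the ATF6 and XBP1 branch holds 1 filled point, Xbp1.

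Markers of other cell types moved with the treatment. Summed over 12 genes each, dendritic cell markers were at 4879 to 14723 CPM in CTR, 4661 to 5851 CPM in NE-treated and 2642 to 2806 CPM in TDE-treated libraries, and neutrophil markers at 7673 to 29323, 8080 to 11381 and 3685 to 3982 CPM. In TDE-treated against CTR BMDCs 7 of the 12 dendritic cell markers and 8 of the 12 neutrophil markers fell, and 0 of either rose. Of all genes 9.34% were called as lower and 7.57% as higher in that comparison. Against NE-treated BMDCs 4 and 6 of these markers fell and 0 rose, beside 7.21% of all genes as lower and 6.73% as higher. Calls without CTR replicate 1 were not counted for the marker lists. CTR replicate 1 held the highest sum of both lists, and without it the CTR libraries were at 4879 to 6005 and 7673 to 10020 CPM. Eosinophil markers went from 649 to 1727 CPM in CTR to 120 to 149 CPM in TDE-treated libraries (10 of 10 fell, and 9 against NE-treated BMDCs), and mast cell and basophil markers from 146 to 424 CPM to 36.3 to 42.0 CPM (6 of 6 tested fell in either comparison, Mcpt4 at 0 throughout). Macrophage markers were at 6716 to 13939 CPM in CTR and 5873 to 6247 CPM in TDE-treated libraries, with 1 of 12 higher and 4 lower (1 and 3 against NE-treated BMDCs). The upper ends of these 3 ranges in CTR are CTR replicate 1 as well, and the other CTR libraries were at 649 to 840 CPM for eosinophil, 146 to 194 CPM for mast cell and basophil, and 6716 to 7110 CPM for macrophage markers. Fibroblast markers summed to 6.46 to 7.61 CPM in CTR, 6.29 to 7.71 CPM in NE-treated and 10.8 to 11.8 CPM in TDE-treated libraries (2 rose, and 1 against NE-treated BMDCs), and epithelial markers to 8.22 to 8.90, 10.9 to 12.7 and 4.37 to 7.05 CPM (1 fell in either comparison), with Cldn4 at 0 throughout. The part of these cell types in the levels of Ddit4, Sesn2 and the other 8 genes was not tested.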

How the data were processed

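The authors deposited estimated counts of reads per gene without normalization, with group means, gene lengths and annotation. Per the labels and the study's methods, reads were aligned with TopHat2 2.1.1 and compared with DESeq2 1.24.0. The counting program, genome build and strand setting are not given in the sources used here. Entries without a gene name numbered 1702 and held 0.372% to 0.681% of reads, and were kept in library sizes, with a fit without them as an alternative.

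Counts were rounded, filtered with filterByExpr, normalized by TMM and fitted with 1 mean per group over all 9 libraries in edgeR 4.0.16 (R 4.3.3), by the quasi-likelihood F test with Benjamini-Hochberg adjustment over 15028 genes and a threshold of 0.05. The SE of a log2 fold change is its size over the square root of F. Alternatives were DESeq2 1.42.0, limma 3.58.1 voom with sample quality weights, median-ratio factors, library totals, other filters, 6 libraries alone, a replicate block, length offsets, a log2 fold change of at least 1, and each library left out. The code was tested on simulated data. Positions came from GENCODE vM21 (55450 of 55536 Ensembl identifiers found) and promoters from RefSeq.

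The 10 genes, the 15 pathway lists, the 7 marker lists and the naming rule were chosen with earlier results of these data known. The rule named the 10 genes, from each pathway list up to 2 called genes with the highest and 2 with the lowest log2 fold change against CTR, the eIF2alpha kinases, family relatives and a few known targets, and the 3 genes most like Atf4. Mars and the other called genes named outside this rule, from short and long lists, were named after their values were seen. The markers Itgax and Zbtb46 lie outside the rule as well.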

Additional observations from a re-analysis of the deposited data

How the results depend on the processing

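The count of the 10 genes past the threshold, 1 against CTR, was also 1 in 15 of 20 alternatives. It was 2 with DESeq2, 7 with limma voom, 2 with offsets fitted to gene length, and 1 to 5 with 1 library left out (5 without CTR replicate 1, 2 without CTR replicate 3). Against NE-treated BMDCs the count of 2 became 1 without the filter on low counts, 3 with at least 10 counts in every library (Trib3 gained, edgeR adjusted p = 0.0430), 4 with DESeq2, 7 with limma voom, 1 with the replicate block, 4 with length offsets, 5 with the 6 libraries alone, 1 at a log2 fold change of at least 1, and 1 to 5 with 1 library left out (5 without CTR replicate 1, and 1 without CTR replicate 2, NE replicate 1 or 2, or any TDE replicate). Between NE-treated and CTR BMDCs it was 0 throughout. Without the entries that have no gene name, chosen after seeing the data, the counts stayed at 1, 2 and 0.

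For single genes, 501 log2 fold changes kept direction and side of the threshold, 31 gained a call, 10 lost one (all Sesn2 against NE-treated BMDCs, among them library totals, edgeR adjusted p = 0.236, and no filter, 0.148) and 25 changed sign, none of them called. Against CTR, Ddit3 became 0.12 with limma voom and Phgdh 0.0426 with library totals and 0.32 with limma voom. Between NE-treated and CTR BMDCs, Atf4 became 0.000542, Sesn2 0.000492 and Ddit4 0.0948 with library totals, which moved the median of all genes from 0.00 to 0.12, and Ddit4 became 0.0272 without the filter, 0.0199 with the replicate block and 0.0652 with length offsets. With 1 library left out, ranges crossed 0 against CTR for Ddit3 (-1.67 to 0.24), Chac1 (-0.65 to 0.22) and Phgdh (-0.34 to 0.38), against NE-treated BMDCs for Chac1 (-0.73 to 0.13), and between NE-treated and CTR BMDCs for Atf4 (-0.34 to 0.0100), Ddit3 (-1.78 to 0.14), Asns (-0.18 to 0.33), Chac1 (-0.00587 to 0.18), Phgdh (-0.70 to 0.0683) and Ddit4 (-0.15 to 0.18). The cause was not tested.

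Replicate numbers gave no sign of pairing: mean correlations of same-numbered libraries were -0.01, -0.03 and -0.26 in the 3 comparisons. Single correlations ran from -0.06 to 0.07, -0.07 to 0.03 and -0.59 to 0.18. With so few libraries, and CTR replicate 1 apart from the rest, these values do not settle whether the libraries were paired. Depth limits Chac1 most: 1 library was at the floor of 3 reads, and it could not be tested with at least 10 counts in every library.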
